A study of Mus musculus with 4 samples.

Results

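Bone morphogenetic protein (BMP) signals were examined in RNA-seq of mouse mammary basal cells through 10 genes out of the 17630 that each library lists. The genes are the ligands Bmp2, Bmp4 and Bmp7, the secreted antagonist Grem1, the inhibitory SMADs Smad6 and Smad7, and the target genes Id1, Id2, Id3 and Id4. They were chosen by name, as ligands, inhibitors and targets of 1 pathway, with earlier results of these data known. All 10 were found by matching the NCBI gene identifiers of the data to mouse symbols.

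The study asked how sympathetic nerve signals act on the mammary gland and its stem cells, and it holds 4 libraries, 1 per condition. All 4 came from wild-type mouse primary mammary basal cells. Sorted control cells came from mammary glands of mice whose treatment label is none, and sorted 6-OHDA cells came from mice injected with 6-hydroxydopamine, a toxin that destroys sympathetic nerve endings. In both, basal cells were gated as cells with CD24 and high CD29 that lacked the blood, erythroid and endothelial antigens CD45, TER119 and CD31. Control colonies and SP colonies were grown from basal cells in Matrigel with growth factors, and SP colonies also received salbutamol and phenylephrine, agonists of the β2- and α1-adrenergic receptors. That the untreated colony library is a culture follows from its title, which pairs it with the SP library, and from the design text, since its other labels match those of the sorted control. The age and strain of the mice behind each library and any pooling of animals were not given for these libraries in the sources used here.

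Expression was given as FPKM, fragments scaled by transcript length and by sequencing depth so that genes can be set side by side. With 1 library per condition there is no spread between replicates, so no value below has an error or a p-value, and a difference describes a pair of libraries. Differences are on the log2(FPKM + 1) scale, which understates differences of genes with low levels. A gene was tested when its mean FPKM over the pair reached 1, and it was called higher or lower past 0.3 for each treatment and past 1 between the 2 controls. Read totals were not given, but low values of genes with 1 transcript gave a rough depth. Taking fragments to be 250 bases long, each FPKM over a kilobase of transcript stood for about 17.2, 16.5, 17.6 and 18.0 fragments in the sorted control, sorted 6-OHDA, control colony and SP colony libraries. On that scale Bmp4 rested on about 106 fragments in sorted control cells, and Grem1 rested on about 68.8 in sorted 6-OHDA cells, against about 4380 for Id3 in sorted control cells.

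The basal label was checked against marker genes. All 8 basal markers were above 0 in every library, and the basal keratin gene Krt14 was listed at 3595, 2633, 3298 and 6920 FPKM in sorted control, sorted 6-OHDA, control colony and SP colony libraries. Smooth muscle genes of basal cells were lower in colonies, with Myh11 at 467, 449, 11.2 and 21.5 FPKM. Markers of other cells were present as well. The 9 luminal markers summed to 1391, 1265, 1902 and 1825 FPKM and were led by Krt8 in each library, at 560, 545, 698 and 683 FPKM. The 5 endothelial markers summed to 223 and 213 FPKM in sorted cells but to 1.68 and 1.80 FPKM in colonies. Pecam1, which encodes the CD31 antigen that the gate removes, was the most abundant of these and stood at 107 and 93.0 FPKM in sorted control and sorted 6-OHDA cells. The 4 pericyte markers, led by Rgs5 in sorted cells, summed to 31.6, 39.3, 1.74 and 0.76 FPKM. Leukocyte markers were low, with 5 genes that summed to 7.36, 6.19, 2.70 and 3.27 FPKM, and the pan-leukocyte gene Ptprc was listed at 0 in both colony libraries. The 4 adipocyte markers summed to 1.16, 0.86, 3.56 and 0.08 FPKM.

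The 7 fibroblast markers summed to 183, 379, 40.03 and 12.7 FPKM. Dcn was their most abundant gene in sorted cells, at 115 and 135 FPKM. The sorted 6-OHDA library also stood apart in salivary gland genes. The 10 listed genes of 12 summed to 15552 FPKM there, led by Bpifa2 at 7277 FPKM, against 1.97 FPKM in sorted control cells, where Bpifa2 and 5 others were listed at 0. In these bulk libraries, a smaller number of cells of a type and less RNA per cell cannot be told apart.

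BMPs are secreted ligands of the TGF-β superfamily that bring together type I and type II serine/threonine kinase receptors. The type I receptor phosphorylates SMAD1, SMAD5 and SMAD9, which join SMAD4 and act on transcription in the nucleus, and the ID genes are among their most direct targets. ID proteins carry a helix-loop-helix domain without a DNA-binding region, so they bind E proteins and keep them off DNA. In the mammary gland, BMP4 from the mesenchyme takes part in laying down the bud, and ID4 is known as a regulator of basal cells that restrains luminal genes.

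On GRCm38.p6, 4 of the 10 genes lie on chromosome 2. These are Bmp2 at chr2:133552159-133562896, Bmp7 at chr2:172868012-172940321, Grem1 at chr2:113748675-113758648 and Id1 at chr2:152736251-152737410. Bmp4 lies at chr14:46383525-46390669, Smad6 at chr9:63953076-64022085 and Smad7 at chr18:75367365-75395935. The other ID genes lie apart from Id1 and from each other, with Id2 at chr12:25093799-25096092, Id3 at chr4:136143822-136145392 and Id4 at chr13:48261116-48266028. Long noncoding RNA genes overlap Bmp4 (Gm15217 and Gm15222), Bmp7 (Gm40010), Smad7 (Gm41776) and Id4 (A330033J07Rik), and whether the libraries kept strand was not given, so reads of overlapping transcripts cannot be told apart.

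The 3 ligands differed in level. Bmp7, which encodes a ligand that can pair with BMP2 or BMP4, was listed at 19.4 FPKM in sorted control cells, 21.2 in sorted 6-OHDA cells, 22.1 in control colonies and 24.4 in SP colonies. It was the ligand with the highest level in each library, and its highest value was 1.26 times its lowest, the narrowest range among the 9 genes above 0 in all libraries. Bmp2, a ligand known for inducing bone and for roles in heart and limb development, was listed at 6.89, 4.37, 0.56 and 0.46 FPKM in the same order. Bmp4 was listed at 3.41 FPKM in sorted control cells, 2.56 in sorted 6-OHDA cells and 0 in both colony libraries. Thus Bmp2 and Bmp4 were found mainly in the sorted libraries and Bmp7 in all 4 libraries at similar levels.

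Grem1 encodes gremlin, a secreted protein that binds BMP2, BMP4 and BMP7 and keeps them from their receptors. It was listed at 1.64, 1.07, 2.52 and 4.34 FPKM in sorted control, sorted 6-OHDA, control colony and SP colony libraries. Its level was therefore highest in SP colonies and lowest in sorted 6-OHDA cells, a ratio of 4.06.

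Smad6 and Smad7 encode inhibitory SMADs, which block receptors and receptor-activated SMADs, and both genes are themselves induced by the pathway. Smad6, whose product acts mostly on BMP receptors, was listed at 9.38 FPKM in sorted control cells, 6.92 in sorted 6-OHDA cells, 4.55 in control colonies and 4.07 in SP colonies. Smad7, whose product acts on both BMP and TGF-β receptors, was listed at 66.8, 46.0, 9.05 and 11.0 FPKM. Smad7 was above Smad6 in each library, and both were higher in the sorted libraries than in the colonies.

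Among the 10 genes, Id3 had the highest level in both sorted libraries and Id4 in both colony libraries. Id3 was listed at 248 FPKM in sorted control cells, 130 in sorted 6-OHDA cells, 31.5 in control colonies and 13.9 in SP colonies, a ratio of 17.8 between its highest and lowest values. Among genes above 0 this put Id3 at percentile 98.1, 96.3, 81.5 and 63.1 of the 4 libraries. Id1 was listed at 48.7, 24.9, 22.0 and 16.6 FPKM, and Id2 at 75.6, 58.4, 56.8 and 36.4 FPKM. For Id1, Id2 and Id3 the order of the libraries was the same, with sorted control cells highest and SP colonies lowest. Id4 had another order, with 40.1 and 41.2 FPKM in sorted control and sorted 6-OHDA cells and 66.8 and 65.5 FPKM in control and SP colonies. Its highest value was 1.66 times its lowest.

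**Figure D1:**
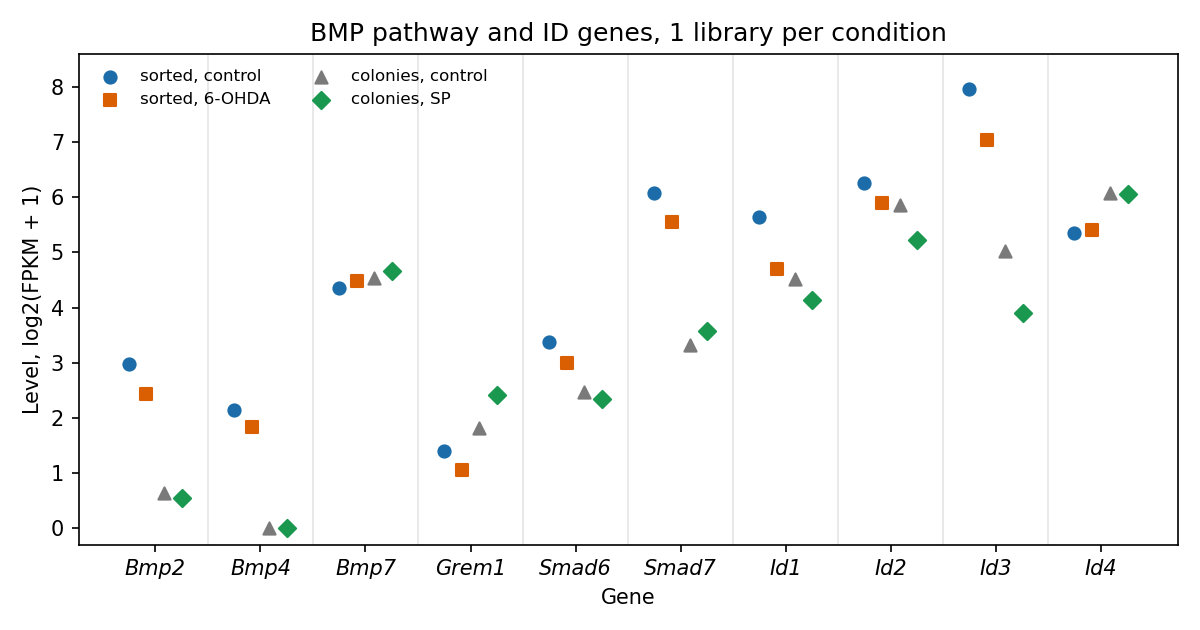
Levels of the 10 genes in the 4 libraries on a log scale, 1 point per library. Bmp4 was listed at 0 in both colony libraries. Id3 ran from 248 FPKM in sorted control cells to 13.9 FPKM in SP colonies, whereas Bmp7 stayed between 19.4 and 24.4 FPKM.

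The makeup of the ID gene levels differed between sorted cells and colonies. Summed over Id1 to Id4, levels were 412 FPKM in sorted control cells, 255 in sorted 6-OHDA cells, 177 in control colonies and 132 in SP colonies. Id3 made up 60.1% of that sum in sorted control cells, 51.2% in sorted 6-OHDA cells, 17.8% in control colonies and 10.5% in SP colonies. Id4 made up 9.73%, 16.2%, 37.7% and 49.5%, so that Id3 led in both sorted libraries and Id4 in both colony libraries. The E protein genes Tcf3, Tcf4 and Tcf12, which encode partners of ID proteins, summed to 69.4, 72.9, 107 and 90.7 FPKM. The ratio of the ID sum to the E protein sum was 5.95, 3.50, 1.65 and 1.46. These ratios compare RNA levels and do not measure proteins.

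Loss of sympathetic nerve endings was the question behind the pair of sorted libraries. In the sorted 6-OHDA library, 8 of the 10 genes were lower than in sorted control cells and 0 were higher, and all 10 were tested. Among all 11749 genes tested, 8.35% were lower and 15.8% were higher by the same rule. Id1 differed by -0.94 on the log2 scale, or 0.511 times its FPKM in sorted control cells, and Id3 by -0.92, or 0.526 times, the 2 largest of the 10, whose order turned with a pseudocount of 5. Id2 differed by -0.37. Of all genes tested, 117 had a lower difference than Id1 and 124 had a lower difference than Id3. Id4 was at 0.04 and was not called, and scaling by the median ratio turned its sign, to -0.02. Bmp2 differed by -0.56, Smad7 by -0.53, Smad6 by -0.39, Grem1 by -0.35 and Bmp4 by -0.31, just past the threshold. Bmp7, at 0.12, was not called. With a pseudocount of 5 in place of 1, the lower genes numbered 5, since Bmp4, Grem1 and Smad6 no longer passed. Of all 11749 genes tested, 539 were lower with that pseudocount. Past a difference of 1, with the pseudocount of 1, there were 0, with 0.902% of all genes lower.

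The median difference of all tested genes in that pair was 0.06, with 95% of genes between -0.58 and 0.67, and higher genes made up 65.4% of those called. They made up 50.4% after each library was scaled by the median ratio of tested genes. Markers of cell types were counted in the same pair, where 15.8% of all genes tested were higher and 8.35% lower. Of 8 basal markers, 1 was higher, Acta2 at 0.40, and 1 lower, Krt14 at -0.45, with a sum of 7261 against 7703.5 FPKM. Of 7 fibroblast markers, 5 were higher and 0 lower in sorted 6-OHDA cells, with a sum of 379 against 183 FPKM. Of 5 endothelial markers, 2 were higher and 0 lower, with a sum of 213 against 223 FPKM and with Pecam1 at 93.0 against 107 FPKM. Of 4 pericyte markers, 1 was higher and 0 lower, and of 9 luminal markers, 8 were tested with 0 higher and 2 lower. All 10 listed salivary gland genes were higher, 9 of which passed the filter only through the sorted 6-OHDA library. Each library was also rescaled by a sum that left these salivary gland genes out, though they stayed among the tested genes. Of the 10 genes, 8 were then lower, as were 1196 of all 12786 tested genes. There Id1 differed by -0.94 and Id3 by -0.91. The part of the other cell types in these differences was not tested.

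The colony pair asked what adrenergic agonists do to basal cells in culture. In SP colonies, 8 of the 10 genes were tested, with 1 higher and 3 lower than in control colonies. Bmp2 and Bmp4 were below the filter. Of all 11849 genes tested, 11.7% were higher and 19.8% were lower. Id3 differed by -1.12 and stood at 0.442 times its FPKM in control colonies, and 110 genes had a lower difference. Id2 differed by -0.63 and Id1 by -0.38, while Id4, at -0.03, was not called, and its sign turned, to 0.04, when values were scaled by the median ratio. Grem1 was the gene called higher, at 0.60, from 2.52 to 4.34 FPKM. It did not pass a filter at a mean FPKM of at least 5, which left 0 higher genes among the 10, and 993 of all 9259. Smad7 differed by 0.25 and was not called, but scaling by the median ratio or quantile normalization put it at 0.32, past the threshold, for 2 higher genes. Of all genes tested, 1749 of 11845 were higher with the first and 1634 of 11842 with the second. Smad6, at -0.13, and Bmp7, at 0.14, were not called. Past a difference of 1, 1 gene was lower, Id3, with 1.33% of all genes lower, and 0 were higher.

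Over all genes, the median difference between SP and control colonies was -0.07, with 95% of genes between -0.81 and 0.88. Higher genes made up 37.1% of those called, and 49.96% after scaling by the median ratio. Of 8 basal markers, 6 were higher and 1 lower in SP colonies, and their sum was 12397 against 5690 FPKM, with Krt14 most abundant in both. Of 7 fibroblast markers, 5 were tested with 0 higher and 4 lower, and their sum was 12.7 against 40.03 FPKM, with Dpt listed at 0 in SP colonies. Of these 4, Col3a1 passed the filter only through control colonies. Of 9 luminal markers, 0 were higher and 3 lower. Of 5 endothelial markers, 1 was tested and was not called, Pecam1, at 1.39 and 1.56 FPKM in control and SP colonies, and Cdh5 was at 0.12 FPKM in each. Among pericyte markers, 1 of 4 was tested and was lower, Pdgfrb, at 1.56 and 0.60 FPKM, which passed only through control colonies. The part of basal, luminal, fibroblast and pericyte cells in the results for the 10 genes was not tested.

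**Figure D2:**
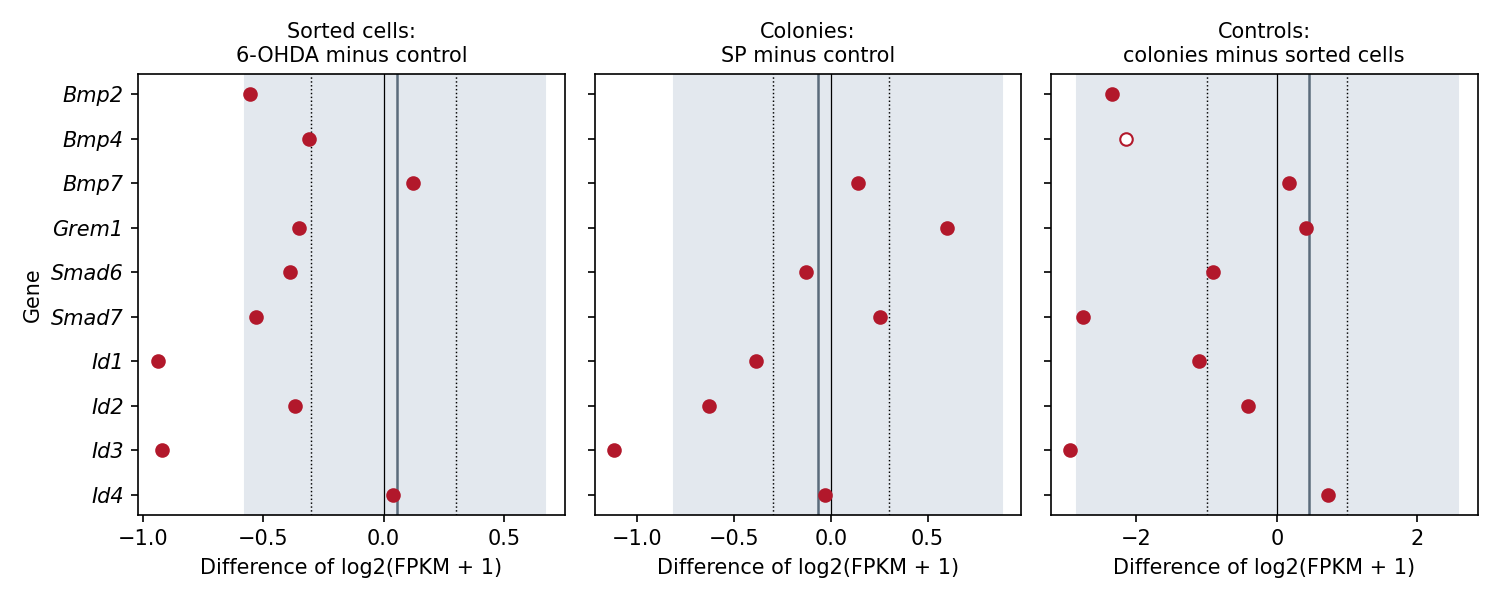
Differences of log2(FPKM + 1) of the tested genes among the 10 in each of the 3 comparisons, with the median of all tested genes (grey line), the range that holds 95% of them (grey band) and the thresholds (dotted lines). Id1 and Id3 were below the band for the sorted pair at -0.94 and -0.92, Id3 was below it for the colony pair at -1.12, and Id3 was below it between the controls at -2.94.

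Control colonies were also set against sorted control cells. Culture and the cells present differ together in this pair, and their parts cannot be told apart. In control colonies 5 of the 10 genes were lower and 0 were higher past a difference of 1, while 13.2% of all 12244 tested genes were lower and 30.7% were higher. Bmp2 and Bmp4, both among the 5, passed the filter on low values only through the sorted library, and of the 8 other genes 3 were lower. Id3 differed by -2.94, at 0.127 times its FPKM in sorted cells, and Smad7 by -2.75, at 0.135 times. Bmp2 differed by -2.34 and had the lowest ratio of these, 0.0813, and Id1 differed by -1.11. The order of these genes depended on the pseudocount and the scaling, with Bmp2 at -3.40 and Id3 at -2.97 with a pseudocount of 0.1. Bmp4 was the fifth gene called lower and, being listed at 0 in colonies, is given no fold. Smad6, at -0.90, and Id2, at -0.41, were not called, nor were Id4 at 0.72, Grem1 at 0.42 and Bmp7 at 0.18. With a threshold of 0.3, 2 genes were higher and 7 lower, and 55.7% and 26.6% of all tested genes were. The lower genes numbered 3 with a pseudocount of 5, against 1019 of all 12244 tested genes. At a mean FPKM of at least 5 they numbered 3, against 1122 of 9126, and Bmp2, Bmp4 and Grem1 did not pass that filter. With a pseudocount of 0.1 they numbered 6, against 1819 of 12244. Each other scaling also gave 6. Of all genes, 2253 of 13038 were lower after rescaling to a common sum, 2587 of 12228 after median ratio scaling and 2290 of 12234 after quantile normalization.

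The median of all tested genes was itself shifted between the controls, at 0.45, with 95% of genes between -2.84 and 2.58. Higher genes made up 69.9% of those called, against 45.2% after scaling by the median ratio. On that scale Id3 stood at -3.44, Smad7 at -3.23, Bmp2 at -2.65, Id1 at -1.60, Smad6 at -1.34 and Id2 at -0.91, while Grem1 was at 0.08 and Id4 at 0.22. Smad6 passed the threshold there, for 6 lower genes, while 2587 of all 12228 tested genes were lower on that scale. Bmp7 turned its sign to -0.31. All 5 endothelial markers were lower in control colonies, from 223 to 1.68 FPKM in sum, with Cdh5 at 77.9 and 0.12 FPKM and Pecam1 at 107 and 1.39 FPKM. All 4 pericyte markers were lower, as were 5 of 7 fibroblast markers, with 1 higher, and 4 of 8 basal markers, with 0 higher. Luminal markers were higher for 3 of 9, near the 30.7% of all genes, and lower for 0. The filter on low values was passed only through sorted cells by Cdh5, Kdr, Tek and Emcn of the endothelial markers, Rgs5, Abcc9 and Kcnj8 of the pericyte markers and Lum and Dpt of the fibroblast markers, and only through colonies by the luminal marker Elf5. The remaining markers of each list gave 1 of 1 endothelial, 1 of 1 pericyte and 3 of 5 fibroblast genes lower and 2 of 8 luminal genes higher. Endothelial cells are known to express Id1, Id3, Smad6 and Smad7, and the part of endothelial cells in the levels of these genes was not tested. Nor was the part of endothelial, pericyte or fibroblast cells in the levels of Bmp2 and Bmp4.

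The pair of sorted libraries and the pair of controls share the sorted control, and the colony pair and the pair of controls share the control colonies. Their differences are therefore set side by side and not correlated. Id3 was lower in each of the 3 comparisons, at -0.92 with 6-OHDA, -1.12 with SP and -2.94 between the controls, and Id1 was lower in each at -0.94, -0.38 and -1.11. Grem1 was at -0.35 with 6-OHDA and at 0.60 with SP, and Smad7 was at -0.53 and 0.25. Whether the responses to 6-OHDA and to SP differ was not tested.

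Other genes of the pathway were read from lists by role, and each count is set against the share of all tested genes called in the same pair. These shares were 15.8% higher and 8.35% lower in the sorted pair, 11.7% higher and 19.8% lower in the colony pair, and 30.7% higher and 13.2% lower between the controls. Of 14 ligand genes, 13 were listed, and 4 were tested in the sorted pair with 0 higher and 2 lower (8.35% of all genes), which were Bmp2 and Bmp4. The fourth, Bmp6, was listed at 1.45, 1.92, 0.10 and 0.56 FPKM in sorted control, sorted 6-OHDA, control colony and SP colony libraries. In the colony pair only Bmp7 was tested, and between the controls 3 ligands were tested with 0 higher and 2 lower, which were Bmp2 and Bmp4, the genes that passed the filter only through sorted cells.

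Of 20 genes for extracellular antagonists and modulators, 19 were listed. Among the 12 tested in the sorted pair 1 was higher and 3 were lower (15.8% and 8.35% of all genes), with a median of -0.19 against 0.06 for all genes. The lower ones were Grem1, Nog at -0.68 and Sostdc1 at -0.32, and the higher one was Fstl1 at 0.32. Nog encodes noggin, an antagonist that traps BMPs, and was listed at 4.30, 2.30, 0.26 and 0 FPKM. In the colony pair 11 were tested with 3 higher and 2 lower (11.7% and 19.8% of all genes), the lower ones near the share of all genes, and a median of 0.01 against -0.07. The higher ones were Grem1, Sostdc1 at 0.37 and Nbl1 at 0.30, and the lower ones were Dand5 at -0.42 and Bmp1 at -0.36. Between the controls 14 were tested with 2 higher and 7 lower (30.7% and 13.2% of all genes), but 4 of them were below 1 FPKM in 1 of the libraries and passed the filter only through the other, Nog, Chrdl1 and Tll1 through sorted cells and Bmper through colonies. Of the 10 at 1 FPKM or more in both, 1 was higher and 4 were lower. Sostdc1, which encodes an antagonist of BMP and WNT signals, was at 6.47, 4.97, 94.4 and 122 FPKM, a difference of 3.67 between the controls, while Nbl1 was at 88.3, 73.2, 12.2 and 15.2 FPKM, a difference of -2.76. Fst, which encodes follistatin, a protein that binds activins and some BMPs, had the highest level of the list in each library, at 427, 398, 197 and 189 FPKM. Next by the mean over the 4 libraries, though not in each of them, came Bmp1, a protease that cleaves the antagonist chordin, at 62.9, 63.7, 96.9 and 75.5 FPKM, and Twsg1 at 83.8, 88.7, 66.5 and 56.6 FPKM. Fstl1 in the sorted pair and Nbl1 and Bmp1 in the colony pair were named as called genes after their values were seen.

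Receptor genes did not pass the threshold in the sorted pair, where 9 of 12 were tested with 0 higher and 0 lower and a median of 0.10. In SP colonies 9 were tested with 0 higher and 5 lower (11.7% and 19.8% of all genes) and a median of -0.35 against -0.07 for all genes. Acvr2a, a type II receptor shared by activins and BMPs, was listed at 11.6, 13.8, 37.8 and 18.4 FPKM, a difference of -1.003 in the colony pair. Rgma and Rgmb, which encode BMP co-receptors, differed by -0.50 and -0.47. Between the controls 10 were tested with 3 higher and 3 lower (30.7% and 13.2% of all genes) and a median of -0.17 against 0.45. Eng, a co-receptor abundant in endothelial cells, was listed at 43.8, 38.4, 2.03 and 1.60 FPKM, a difference of -3.89. Acvr2a differed by 1.62 and Rgma by 2.21. By the mean over the 4 libraries, the receptor genes with the highest levels were Acvr1, at 74.0, 79.6, 52.1 and 40.5 FPKM, and Bmpr1a, at 26.7, 31.9, 63.5 and 54.6 FPKM, both type I receptors, and Bmpr2, the type II receptor of BMPs, at 28.2, 30.7, 23.5 and 19.6 FPKM. In both sorted libraries Eng was above Bmpr1a and Bmpr2, and in control colonies Acvr2a was above Bmpr2.

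Of the 10 genes for SMADs and their regulators, 9 were tested in each pair. In the sorted pair 0 were higher and 2 lower (8.35% of all genes), which were Smad6 and Smad7, with a median of -0.00. In the colony pair 0 were higher and 2 lower, a share near the 19.8% of all genes. These were Ski at -0.42 and Skil at -0.32, which encode corepressors of SMADs, and the median of the list was -0.13. Between the controls 0 were higher and 1, Smad7, was lower (13.2% of all genes), with a median of -0.49 against 0.45. Skil, at 101, 89.1, 50.8 and 40.4 FPKM, and Ski, at 60.2, 53.3, 42.6 and 31.6 FPKM, had the highest mean levels of the list, followed by Smad1. The genes for the BMP-activated SMADs were not called in any of the 3 pairs, with Smad1 at 43.8, 43.6, 24.6 and 23.8 FPKM and Smad5 at 19.9, 21.3, 21.0 and 17.6 FPKM, and Smad9 was below the filter. Smad5 was named outside the rule for named genes.

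BMP response genes were counted in a list of 14 that holds Id1 to Id4, Smad6 and Smad7. In the sorted pair 11 were tested with 0 higher and 7 lower (15.8% and 8.35% of all genes), a median of -0.39 against 0.06 for all genes. Without the members named above, 5 of the other 8 were tested with 0 higher and 2 lower, Nog and Atoh8, the latter at -0.48 and listed at 4.55, 2.99, 0.13 and 0 FPKM. In the colony pair 10 were tested with 1 higher and 6 lower (11.7% and 19.8% of all genes), a median of -0.39 against -0.07. Of the other 8 genes, 4 were tested there with 1 higher and 3 lower. Msx2, a homeobox gene, was higher at 0.85, and Dlx5, also a homeobox gene, at -0.81, Hey1 at -0.72 and Bambi, which encodes a decoy receptor, at -0.39 were lower. Between the controls 12 were tested with 2 higher and 6 lower (30.7% and 13.2% of all genes), and the other 8 gave 6 tested genes with 2 higher and 3 lower. Of these calls, Nog and Atoh8 passed the filter only through sorted cells and Dlx5 only through colonies, and the 9 genes of the list at 1 FPKM or more in both libraries gave 1 higher and 4 lower. Hey1, a target of both Notch and BMP signals, was listed at 9.76, 10.3, 33.2 and 19.7 FPKM. Hey1 and Bambi were named after their values were seen. The 3 E protein genes gave 0 higher and 0 lower in both treated pairs, with medians of 0.09 and -0.29, and between the controls 1 was higher, Tcf3, at 1.52, with a median of 0.30.

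The genes whose levels over the 4 libraries lay nearest to each ID gene were found among the 9121 whose mean FPKM reached 5. Likeness was the Euclidean distance between centred log2(FPKM + 1) values, where 0 is the same pattern. For Id1 the nearest was Chil1, at 602, 338, 280 and 220 FPKM and a distance of 0.0853, followed by Daxx and Zbp1. For Id2 it was Pnpla2, at a distance of 0.112, followed by Tlr2 and Kazn. Id3 had no gene as near, since its nearest, the complement gene C4b, lay at 0.324 with 70.8, 49.9, 8.87 and 3.67 FPKM, ahead of Cpxm1 and Ltbp2. For Id4 the nearest was Rpl32l, at 0.0241, followed by Rtn3 and Nek1.

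Sequences just upstream of the ID genes are shown because Id2 and Id3 were lower in both treated pairs and Id4 was not called in either. Id1 was also lower in both, but no promoter window matched it, so its sequence is not shown. Promoter windows from RefSeq on GRCm38.p6 matched 6 of the 10 genes, Bmp4, Grem1, Id2, Id3, Id4 and Smad6, and the 250 bases before the start that this table gives were searched on both strands. For Smad6 that start lies inside the gene interval given above. The motifs were CAGAC, read as GTCTG on the other strand, which holds the SMAD-binding core, the palindrome GGCGCC, which SMADs of the BMP branch can bind, and TGACG, read as CGTCA on the other strand, a core of the cAMP response element. Of 17390 windows of the same length, 41.3% held CAGAC or its complement, 14.5% held GGCGCC and 23.0% held TGACG or its complement. Id3, at chr4:136143572-136143821 on the plus strand, held 2 matches to the first motif and 1 to the third, which overlaps one of them. Id2, at chr12:25096093-25096342 on the minus strand, held 1 GGCGCC, and Id4, at chr13:48260866-48261115 on the plus strand, held 1 GGCGCC and 1 CGTCA. Capitals mark the matches in the sequences, which run 5′ to 3′ towards the gene.
Id3: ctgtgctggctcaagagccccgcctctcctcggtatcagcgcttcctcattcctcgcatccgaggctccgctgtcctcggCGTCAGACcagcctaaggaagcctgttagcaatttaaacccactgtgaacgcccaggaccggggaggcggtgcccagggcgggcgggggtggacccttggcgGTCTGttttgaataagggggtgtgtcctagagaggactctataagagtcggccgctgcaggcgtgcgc
Id2: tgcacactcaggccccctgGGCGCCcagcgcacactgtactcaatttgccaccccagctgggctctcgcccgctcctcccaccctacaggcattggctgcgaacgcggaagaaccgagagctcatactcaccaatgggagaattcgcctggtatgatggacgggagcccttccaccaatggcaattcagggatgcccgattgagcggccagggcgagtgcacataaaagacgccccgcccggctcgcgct
Id4: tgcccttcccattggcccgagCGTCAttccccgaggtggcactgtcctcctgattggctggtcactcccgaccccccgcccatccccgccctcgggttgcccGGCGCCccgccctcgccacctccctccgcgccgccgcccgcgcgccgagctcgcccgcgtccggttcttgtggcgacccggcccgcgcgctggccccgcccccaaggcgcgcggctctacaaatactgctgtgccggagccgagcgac

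The windows of Id2 and Id3 each held 62.8% G and C and that of Id4 held 75.6%, with a median of 58% over all windows. Grem1 held 1 CAGAC and 1 GGCGCC, while Bmp4 and Smad6 held no match to the 3 motifs. A match describes letters in a window and does not show that a factor binds there.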

How the data were processed

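Total RNA of sorted basal cells and basal colonies was sequenced in 4 libraries, 1 per condition. The authors deposited FPKM values with 2 decimals for 17630 genes, and their processing notes name Bowtie2, RSEM 1.3.1 and mm10, with no roles given; the annotation was not given in the sources used here. Of the gene identifiers, 17512 matched a symbol in the RefSeq table of GRCm38.p6. Differences were taken as log2(FPKM + 1) within each pair of libraries, for genes whose mean FPKM reached 1, and were called past 0.3, a fold taken from a figure legend of the study, or past 1 between the controls. No p-value was computed. Read totals were not used here, and depth was estimated from low FPKM values.

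The 10 genes, the 7 pathway lists and the 8 marker lists were chosen with earlier results of these data known. All 10 genes were named, with the 3 genes of highest mean and the 3 of largest difference in each pathway list and comparison, and the 3 genes nearest to each ID gene. Alternatives were pseudocounts of 0.1 and 5, no filter, a mean of at least 5, other fold thresholds, rescaling to a common sum (TPM) with or without salivary gland genes, scaling by the median ratio, quantile normalization, and percentiles among all listed genes. The computation was tested on simulated data. Values were computed in Python 3.11.15 with pandas 2.3.3, scipy 1.17.1 and numpy 2.4.6 and drawn with matplotlib 3.10.9.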

Additional observations from a re-analysis of the deposited data

How the results depend on the processing

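No paired analysis was possible because each condition has 1 library. Of the genes lower with 6-OHDA, 8 by the settings used, 5 were left with a pseudocount of 5 and 0 past a difference of 1. Bmp4 (-0.15), Grem1 (-0.13) and Smad6 (-0.27) no longer passed with that pseudocount. At a mean FPKM of at least 5, which Bmp4 and Grem1 did not reach, 6 were left. With SP, the 1 higher gene became 0 at a mean FPKM of at least 5, 2 after scaling by the median ratio, 2 after quantile normalization and 0 past a difference of 1, and the 3 lower genes became 1 past a difference of 1. Between the controls, the 0 higher genes became 2 at a threshold of 0.3, and the 5 lower genes became 3 with a pseudocount of 5 and 3 at a mean FPKM of at least 5, against 6 with a pseudocount of 0.1 or any other scaling and 7 at a threshold of 0.3. For each gene's own difference, 75 values with 6-OHDA, 60 with SP and 64 between the controls kept their side of the threshold. Falling short of it instead were 3 with 6-OHDA and 1 between the controls. Coming past it were 2 with SP and 5 between the controls. Changes of sign were seen in values of Id4 and Bmp7 that were not called. Smad7 with SP was past the threshold at 0.32 under median ratio scaling and quantile normalization. Smad6 between the controls was past it in 5 settings at -1.03 to -1.39, and Id1 there was at -0.99 with a pseudocount of 5. Id1 ranged from -1.001 to -0.84 and Id3 from -0.98 to -0.90 with 6-OHDA, and Id3 from -1.17 to -0.95 with SP. Over all genes, a pseudocount of 5 left 804 higher and 539 lower with 6-OHDA against 1857 and 981, 1276 lower with SP against 2351, and 2027 higher and 1019 lower between the controls against 3761 and 1619. A mean FPKM of at least 5 left 1066 higher and 639 lower with 6-OHDA, and between the controls median ratio scaling gave 2137 higher and 2587 lower and quantile normalization 2431 higher. Why these values moved was not tested, except that the stricter filter leaves fewer genes and a larger pseudocount shrinks differences of low genes. Depth limits Bmp2, Bmp4 and Grem1 most.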

Other observations

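The TGF-β and activin branch of the superfamily uses other ligands and SMADs. Of its 15 genes, all tested, 2 were higher and 2 lower with 6-OHDA, 2 were higher and 3 lower with SP, and 4 were higher and 6 lower between the controls, with medians of 0.04, -0.11 and 0.03. Over all tested genes, 15.8% were higher and 8.35% lower with 6-OHDA, 11.7% and 19.8% with SP, and 30.7% and 13.2% between the controls, with medians of 0.06, -0.07 and 0.45. Inhba, which encodes an activin subunit, was listed at 1.65, 4.39, 26.0 and 27.1 FPKM in sorted control, sorted 6-OHDA, control colony and SP colony libraries, a difference of 1.02 with 6-OHDA and 3.35 between the controls. Inhbb, for another activin subunit, was listed at 10.7, 12.5, 109 and 91.4 FPKM. Tgfbi, a matrix gene induced by TGF-β, was listed at 34.9, 20.4, 1.05 and 1.97 FPKM, with differences of -0.75, 0.53 and -4.13. Tgfb3 differed by -0.63 with SP and by 1.32 between the controls. The part of other cell types in these values was not tested.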
